A study of Homo sapiens with 6 samples.

Results

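Matrix metalloproteinases (MMPs) are zinc enzymes that cut the proteins of the extracellular matrix, and tissue inhibitors of metalloproteinases (TIMPs) are the secreted proteins that bind and block them. Most MMPs leave the cell as inactive zymogens, so the amount of active enzyme depends on transcription, on proteolytic activation and on the local level of inhibitor. In ovarian cancer the family is known for its part in invasion and in the spread of tumour cells over the peritoneum. The 10 genes described here are 7 metalloproteinases (MMP1, MMP2, MMP3, MMP7, MMP9, MMP10 and MMP14) and 3 inhibitors (TIMP1, TIMP2 and TIMP3). They were chosen by gene name, and each is read by 1 probe, so that 10 of the 41000 probes on the array belong to them.

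RNA was compared on 6 Agilent Whole Human Genome arrays, each holding an RNA labelled with the green dye Cy3 and another labelled with the red dye Cy5. Both cell lines are established human ovarian cancer lines, and the gene that was altered is TGFB1I1, which encodes Hic-5, a LIM-domain adaptor protein of focal adhesions. In SKOV3 cells, 2 stable clones with shRNAs to Hic-5 (named sh-S1 and sh-S2, made with pLKO.1-puro lentivirus and selected in puromycin) were each set against the same Ctrl RNA, from cells that carried a scramble shRNA in the same vector. In A2780s cells, 1 stable clone with a Myc-DDK-tagged Hic-5 cDNA in the pCMV6 vector (pCMV-Hic-5, selected in neomycin) was set against a clone with the empty vector. Each clone was hybridized on 2 arrays with the dyes exchanged, so there were 4 arrays in SKOV3 and 2 in A2780s. The arrays of each cell line lay on a slide of their own, so that a slide effect cannot be told apart from the cell line. Every modified RNA came from a single clone, and nothing in the labels gives separate cultures of it.

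Every ratio given below is a log2 ratio of modified clone over Ctrl, so that 1 stands for a 2-fold higher signal and -1 for a 2-fold lower signal. In SKOV3 the clones were the replicates (n = 2), and a gene was called at a limma adjusted p of at most 0.05 over all probes tested together with a change of at least 2-fold. The Ctrl was a single RNA, and its own spread is outside this test. In A2780s there was 1 pair of RNAs and no test, and a gene was called by size alone, when the mean of both arrays reached 1.5-fold and both pointed the same way. The SKOV3 arrays were dim in red. The median signal above local background was 9.52 to 25.5 in Cy5 against 373 to 530.5 in Cy3, and the offset of 50 added to every signal pulls ratios of low signals toward 0.

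Some values stood against the labels of the SKOV3 RNAs. TGFB1I1 was not called lower in either labelled sh RNA, with log2 ratios of -0.16 and 0.12 for sh-S1 and of -0.12 and 0.28 for sh-S2 (mean 0.03 ± 0.07, SD, n = 2 clones, limma adjusted p = 0.855). The TGFB1I1 spot in SKOV3 was well above background but low in Cy5, at 8.44 to 26.1, where the offset pulls ratios toward 0. In Cy3 the spot read 717 and 611 in the Ctrl and 662 and 472 in the clones. In A2780s the TGFB1I1 ratios were 4.05 and 2.60, and the Ctrl spot read 11374 in Cy3 but 59618 in Cy5. The mean log2 level of TGFB1I1 was 12.88 in the A2780s Ctrl and 8.22 in the SKOV3 Ctrl. At the protein level the paper reports the other order, with rather low Hic-5 in A2780s and strong expression in SKOV3. The paper reports that the sh clones were selected for inhibited Hic-5 expression by RT-PCR and Western blot. It also reports higher E-cadherin and EPCAM protein in both sh clones, and similar patterns by qPCR for selected array genes. These measurements were not analysed here. Of 9 epithelial and ovarian markers, 8 could be tested in SKOV3 and 6 fell in the labelled sh RNAs, with log2 ratios from -2.14 (KRT8) to -3.58 (PAX8). These are the brightest probes, and others of the same genes gave as little as -0.38 for KRT8, -0.06 for PAX8, 0.01 for KRT18 and -0.09 for ERBB2. WT1 (-0.02) and MUC16 (0.06) were not called, and EPCAM was too dim to test. Of all probes tested in SKOV3, 4.16% were called lower. The fibroblast collagen COL3A1 rose by 3.65, and its mean log2 level in the sh RNAs was 13.06, against 9.41 in the SKOV3 Ctrl and 13.06 in the A2780s Ctrl. These COL3A1 values are from its brightest probe, and another probe gave a ratio of 1.12. The called epithelial markers stayed above the A2780s Ctrl in the sh RNAs. Mean levels were 8.99 against 6.54 for KRT7, 11.16 against 9.45 for KRT8 and 11.17 against 9.45 for KRT18. They were 10.30 against 8.87 for PAX8 and 10.93 against 10.47 for ERBB2, and KRT19 had no A2780s mean. Of the other 4 fibroblast markers, LUM was too dim to test and COL1A1, COL1A2 and DCN were not called. The leukocyte markers CD68 and CD14 were not called either, and PTPRC, PECAM1 and VWF were too dim to test in SKOV3. These shifts ran alongside every SKOV3 result below, and their part in it was not tested.

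Sequences are shown first for TIMP1 and MMP10, which were called, and for MMP7, which was not. The array reads TIMP1 and MMP7 with the following probes, printed 5′ to 3′ because they are the measured stretches of the inhibitor that rose and of the enzyme whose call hung on the processing. The TIMP1 probe maps to chrX:47444666-47444725 on the plus strand and the MMP7 probe to chr11:102394029-102394088 on the minus strand, both on hg19 as the array files give it.
TIMP1 probe: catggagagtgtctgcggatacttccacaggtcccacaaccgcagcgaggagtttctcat
MMP7 probe: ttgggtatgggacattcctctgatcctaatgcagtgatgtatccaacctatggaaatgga

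Many MMP promoters are known for a site of the AP-1 factors (JUN and FOS proteins) close to a TATA box, and the promoters of MMP10 and MMP7 are shown for it. Each is the 250 bases before the transcription start, printed 5′ to 3′ along the gene, with letters that match the AP-1 motif TGANTCA in capitals. The sequences are from RefSeq (GRCh38.p14, both on the minus strand), at chr11:102780629-102780878 for MMP10 and chr11:102530748-102530997 for MMP7.
MMP10 promoter: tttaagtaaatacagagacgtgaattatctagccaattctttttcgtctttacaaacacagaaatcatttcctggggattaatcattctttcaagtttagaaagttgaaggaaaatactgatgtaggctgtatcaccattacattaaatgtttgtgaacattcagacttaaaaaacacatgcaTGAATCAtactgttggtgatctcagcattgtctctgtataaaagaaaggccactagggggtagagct
MMP7 promoter: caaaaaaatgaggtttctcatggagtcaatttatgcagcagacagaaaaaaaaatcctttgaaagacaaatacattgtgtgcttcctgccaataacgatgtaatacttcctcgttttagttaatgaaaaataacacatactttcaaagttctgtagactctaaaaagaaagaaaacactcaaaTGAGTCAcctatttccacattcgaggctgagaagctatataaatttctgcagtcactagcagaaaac

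In both promoters the AP-1 match began 67 bases before the start. A TATAAA match began 31 bases before the start of MMP10 and 30 bases before that of MMP7. The ETS-type motif AGGAAG (PEA3) was matched on the opposite strand 169 and 145 bases before the start of MMP7, on the gene's own strand 87 bases before that of TIMP1, and nowhere in the MMP10 window. Promoters were at hand for 5 of the 10 genes, and those of MMP1, MMP2, MMP3, MMP9 and TIMP2 could not be searched. MMP14 and TIMP3 held none of these letters in the 300 bases searched on both strands (250 before to 50 after the start), and TIMP1 held neither AP-1 nor TATAAA. Of all 27305 promoter windows of this length, 7.76% held the AP-1 letters, 33.7% the PEA3 letters and 12% TATAAA. The motifs did not overlap in these windows, and a match describes letters only.

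In SKOV3 the collagenase gene MMP1 fell most among the 7 genes tested, TIMP2 fell and TIMP1 rose, while the gelatinase gene MMP9 and MMP10 were not called. MMP1 was 6.60-fold lower and TIMP2 2.38-fold lower in the labelled sh RNAs, and TIMP1 was 3.69-fold higher. Of the 7 genes bright enough to test, 1 was called higher and 2 were called lower. Across all 24956 probes tested, 2.98% were called higher and 4.16% lower. The median log2 ratio of the 7 genes was -0.22, against 0.00 for all probes tested.

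MMP1 encodes interstitial collagenase, which cuts fibrillar collagens. Its log2 ratios were -2.16 with sh-S1 in Cy5, -3.17 with sh-S1 in Cy3, -2.27 with sh-S2 in Cy5 and -3.29 with sh-S2 in Cy3. It was lower on 4 of 4 arrays, and the clones differed from each other by -0.11 in each dye orientation. The size followed the dye: both arrays with the clone in the dim red channel gave the smaller fall. On average it was -2.72 ± 0.08 (SD, n = 2 clones, SE 0.10, limma adjusted p = 6.7e-06).

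Before any normalization, the median MMP1 spot of the Ctrl read 10081 and 8267 above background in Cy3, where the clone in Cy5 read 11.8 (sh-S1) and 19.6 (sh-S2). With the dyes exchanged, the clones read 481 and 648 in Cy3 and the Ctrl 353 and 471 in Cy5. Set within the same dye, the Ctrl signal was far above that of either clone. The MMP1 probe is spotted 10 times on each array. The SD among these spots was 0.10 and 0.07 where the clone was red, and 0.29 and 0.56 where it was green, all smaller than the fall itself.

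MMP7 encodes matrilysin, a small MMP that lacks the hemopexin domain and is typical of epithelial cells. Its log2 ratios were -0.60 and -1.01 for sh-S1 and -0.83 and -1.40 for sh-S2, with the clone in Cy5 given first for each. All 4 arrays gave a lower value, and the mean was -0.96 ± 0.22 (SD, n = 2 clones, limma adjusted p = 0.00095). It passed the test and lay just short of 2-fold, at 1.95-fold, so it was not called. The clones were not well above background in Cy5, where the MMP7 spot read 5.29 (sh-S1) and 4.73 (sh-S2) above background. In that dye the Ctrl read 36.3 and 57.0, before any normalization. In Cy3 the Ctrl read 1389 and 1229, and the clones read 116 (sh-S1) and 124 (sh-S2). The size of the fall therefore depended on how low signals were treated. With Feature Extraction's own processed signals it was -3.14 (limma adjusted p = 0.00095), with an offset of 16 in place of 50 it was -1.58 (limma adjusted p = 1.2e-05), and both settings called MMP7 lower.

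The stromelysins MMP3 and MMP10 have broad substrates and can activate other MMP zymogens. In SKOV3, MMP10 ratios were -0.03 and 0.02 for sh-S1 and -0.14 and -0.75 for sh-S2, with the clone in Cy5 first. A single array carried most of the mean of -0.22 ± 0.31 (SD, n = 2 clones, limma adjusted p = 0.245). MMP3 was too dim to test in SKOV3, since neither the Ctrl nor the clones were well above background in Cy5, and its ratios lay between -0.06 and 0.07.

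MMP9 and MMP2 encode the gelatinases, which cut denatured collagen and basement membrane collagen. MMP9 ratios were 0.22 and -0.11 for sh-S1 and 0.08 and -0.20 for sh-S2, positive with the clone in Cy5 and negative with the clone in Cy3. On average it was 0.00 ± 0.08 (SD, n = 2 clones, SE 0.09, limma adjusted p = 0.981). MMP2 was well above background in Cy3 alone and was not tested, and its ratios lay between -0.05 and -0.01. MMP14 encodes a membrane-anchored MMP that activates the MMP2 zymogen. It was likewise measured in Cy3 alone, with ratios between 0.01 and 0.23.

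TIMP1, a broad inhibitor of secreted MMPs, gave log2 ratios of 2.17 and 2.13 for sh-S1 and of 1.55 and 1.67 for sh-S2, with the clone in Cy5 first. It was higher on 4 of 4 arrays, on average 1.88 ± 0.38 (SD, n = 2 clones, SE 0.14, limma adjusted p = 0.00014). The sh-S2 ratio differed from that of sh-S1 by -0.62 (clones in Cy5) and -0.45 (clones in Cy3). This difference was in the same direction in both orientations but was not tested, as each clone is 1 RNA.

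TIMP2, which blocks MMPs and also takes part in the activation of the MMP2 zymogen by MMP14, moved against TIMP1. Its ratios were -1.40 and -1.05 for sh-S1 and -1.60 and -0.95 for sh-S2, with the clone in Cy5 first. It was lower on 4 of 4 arrays, on average -1.25 ± 0.03 (SD, n = 2 clones, SE 0.09, limma adjusted p = 0.00014). TIMP3, an inhibitor that stays bound to the matrix, had ratios between 0.01 and 0.24, with a mean of 0.13 ± 0.05 (SD, n = 2 clones, limma adjusted p = 0.350).

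**Figure D1:**
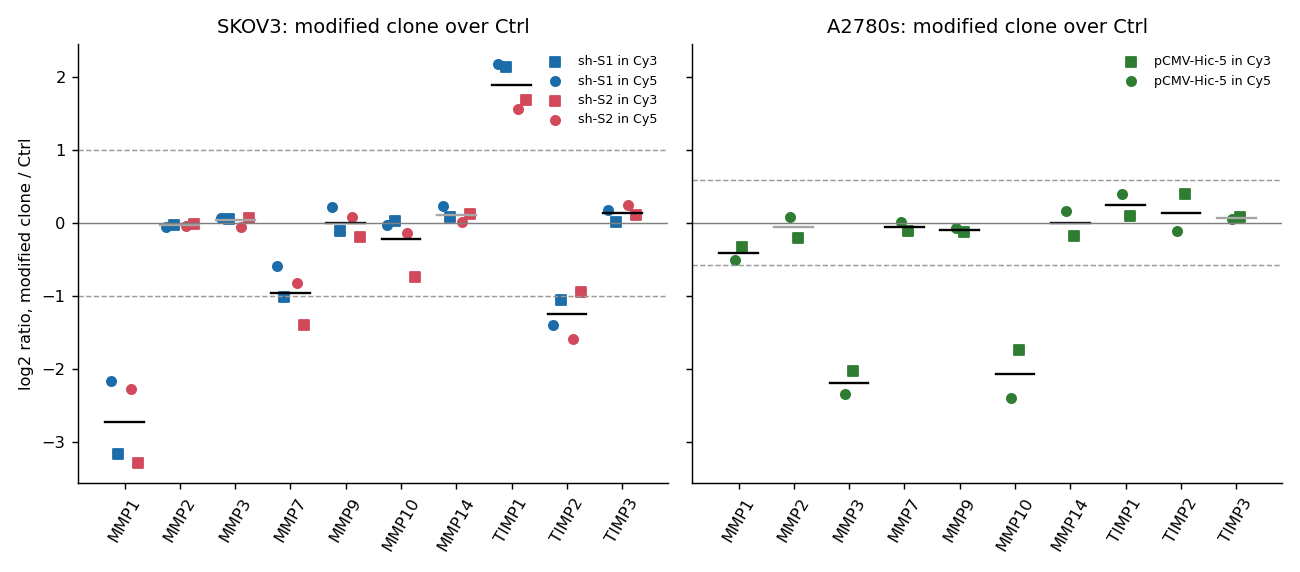
Log2 ratio of modified clone over Ctrl (vertical axis) for the 10 MMP and TIMP genes on each array, in SKOV3 (left) and A2780s (right). Circles are arrays with the clone in Cy5, squares arrays with the clone in Cy3, bars are means (grey where the gene was below the filter), and dashed lines mark 2-fold in SKOV3 and 1.5-fold in A2780s. MMP1, MMP7 and TIMP2 lie below 0 and TIMP1 above 0 on every SKOV3 array, while MMP3 and MMP10 are the genes far below 0 in A2780s.

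In A2780s different members of the family stood out: the stromelysin genes MMP3 and MMP10 were 4.56-fold and 4.20-fold lower in the pCMV-Hic-5 clone than in its Ctrl, and no inhibitor was called. Of the 8 genes bright enough to measure, 2 were called lower and 0 were called higher. Across all 30530 probes measured, 1.32% were called lower and 3.26% higher. The design gives no test here, since both arrays hold the same pair of RNAs, and 1.5-fold on each array alone left the same counts.

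MMP3 gave log2 ratios of -2.35 (clone in red) and -2.03 (clone in green), on average -2.19. Its spot read 939 and 883 above background in the Ctrl, and 278 and 150 in the clone. MMP10 gave -2.40 and -1.75, a mean of -2.07, with Ctrl signals of 2301 and 1849 and clone signals of 743 and 419. Both genes were well above background in both RNAs on both arrays, and both were lower in each dye orientation. With normexp fitted on all spots the MMP3 mean was -1.57, and with processed signals it was -2.66. The corresponding MMP10 means were -1.74 and -2.28.

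MMP1 lay at -0.51 and -0.33 in A2780s, a mean of -0.42 that stayed short of 1.5-fold. With processed signals its mean was -0.87, which passed 1.5-fold. TIMP1 gave 0.39 and 0.10, and TIMP2 gave -0.12 and 0.39, a pair of values with opposite signs. MMP7, MMP9 and MMP14 had means of -0.05, -0.10 and -0.01. MMP2 and TIMP3 did not pass the filter on dim probes. MMP2 was not well above background in the pCMV-Hic-5 RNA on either array, and no fold is given for it. TIMP3 ratios were 0.05 and 0.07.

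**Figure D2:**
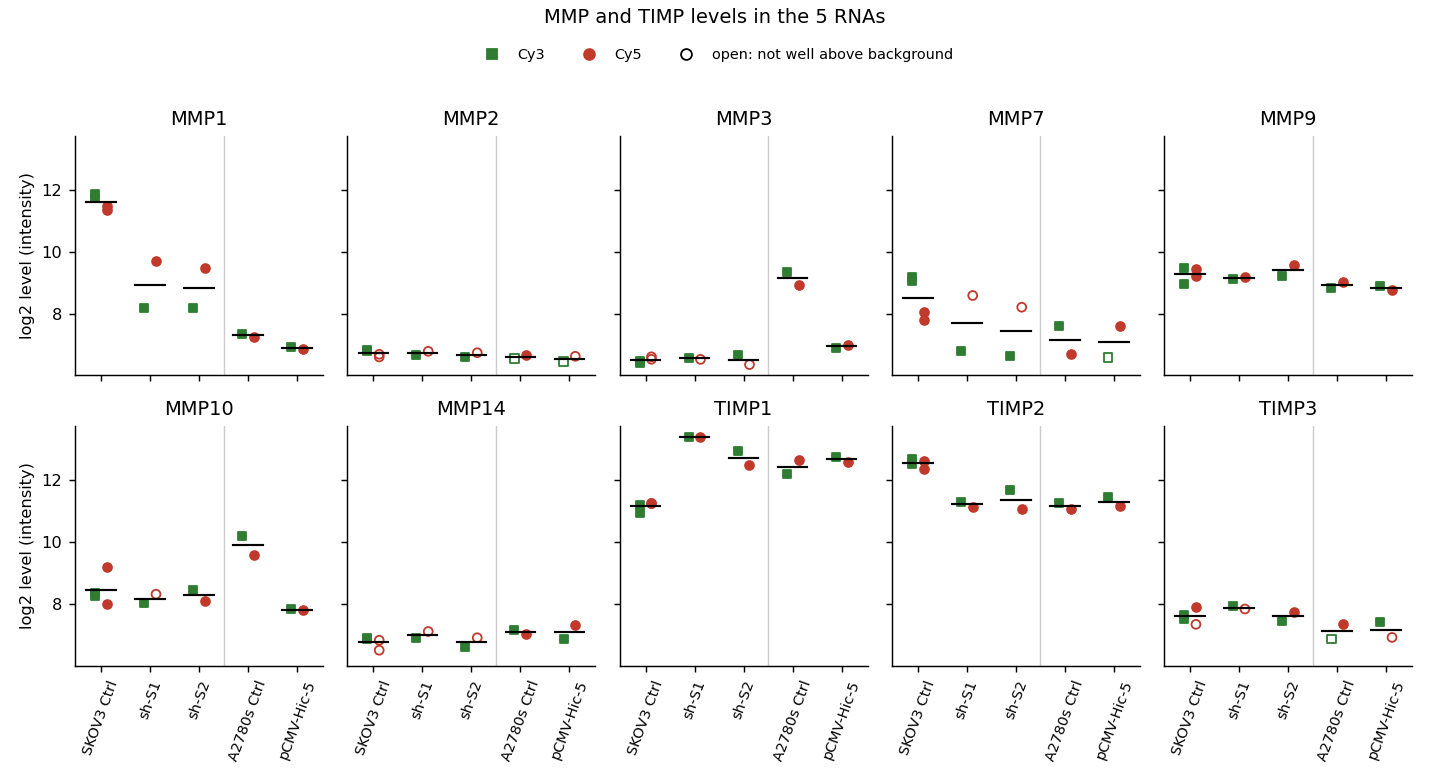
Log2 level (vertical axis) of the 10 genes in each of the 5 RNAs (horizontal axis), per channel after loess and Aquantile normalization. Green squares are Cy3, red circles Cy5, open symbols are channels in which the spot was not well above background, bars are means, and the thin line parts the cell lines. MMP1 and TIMP2 are highest in the SKOV3 Ctrl, TIMP1 is lowest there, and MMP3 and MMP10 are highest in the A2780s Ctrl.

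The Ctrl RNAs of the cell lines themselves differed in these genes. The values here are mean log2 levels per channel, to be compared within a gene and not between genes. MMP1 was 11.62 in the SKOV3 Ctrl (11.36 to 11.86 over 4 arrays), 8.95 in sh-S1, 8.85 in sh-S2, 7.32 in the A2780s Ctrl and 6.90 in pCMV-Hic-5. The SKOV3 Ctrl did not overlap with any other RNA. The sh clones overlapped with each other, and both lay above the A2780s RNAs.

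MMP3 followed another order, with 9.15 in the A2780s Ctrl, 6.96 in pCMV-Hic-5, 6.52 in the SKOV3 Ctrl, 6.57 in sh-S1 and 6.53 in sh-S2. The Ctrl of A2780s stood alone, and the SKOV3 RNAs were well above background in Cy3 alone. MMP10 was 9.90 in the A2780s Ctrl and 7.83 in pCMV-Hic-5, against 8.46 in the SKOV3 Ctrl, 8.19 in sh-S1 and 8.29 in sh-S2. The SKOV3 Ctrl ranged from 8.02 to 9.21, which spans the sh clones but stays below the A2780s Ctrl.

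TIMP1 was lowest in the SKOV3 Ctrl, at 11.17, and reached 13.40 in sh-S1 and 12.72 in sh-S2, beside 12.44 in the A2780s Ctrl and 12.68 in pCMV-Hic-5. The sh-S2 range of 12.48 to 12.95 overlapped with both A2780s RNAs, and sh-S1 lay above them. TIMP2 was 12.55 in the SKOV3 Ctrl, 11.22 in sh-S1, 11.37 in sh-S2, 11.17 in the A2780s Ctrl and 11.30 in pCMV-Hic-5. The SKOV3 Ctrl stood above, and the other RNAs overlapped. MMP7 was 8.53 in the SKOV3 Ctrl, with 7.70 in sh-S1, 7.44 in sh-S2, 7.17 in the A2780s Ctrl and 7.11 in pCMV-Hic-5, and its channels lay far apart. Its range in the SKOV3 Ctrl (7.81 to 9.20) overlapped with both sh clones and lay above both A2780s RNAs. This overlap with the sh clones came from pooling the dyes. In Cy3 the Ctrl was 9.20 and 9.05, against 6.79 in sh-S1 and 6.66 in sh-S2. The Cy5 levels of the clones, 8.60 and 8.22, were not well above background.

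For MMP1, TIMP1, TIMP2 and MMP7 the mean level of both labelled sh RNAs lay on the A2780s side of the SKOV3 Ctrl. The share of all genes that did so was not computed, so this direction is a description of these genes only. Cell line and slide cannot be told apart in these levels. The difference between the sh mean and the A2780s Ctrl was 1.58 for MMP1, 0.62 for TIMP1, 0.13 for TIMP2 and 0.40 for MMP7. The A2780s Ctrl itself differed from the SKOV3 Ctrl by -4.30, 1.26, -1.38 and -1.36. The sh levels of MMP3, MMP10 and TGFB1I1 lay near the SKOV3 Ctrl and differed from the A2780s Ctrl by -2.60, -1.66 and -4.63. MMP3 and MMP2, well above background in SKOV3 in Cy3 alone, also lay on the A2780s side, by small margins. MMP3 was 6.570 in sh-S1 and 6.533 in sh-S2, against 6.521 in the SKOV3 Ctrl. MMP2 was 6.736 in sh-S1 and 6.679 in sh-S2, against 6.742 in the SKOV3 Ctrl. Over the 5 RNAs the mean levels ran from 8.83 to 9.41 for MMP9, from 6.56 to 6.74 for MMP2, from 6.78 to 7.12 for MMP14 and from 7.12 to 7.89 for TIMP3.

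MMP1, MMP3, MMP7 and MMP10 belong to the MMP gene cluster of chromosome 11. In the RefSeq gene order the cluster runs MMP7, MMP20, MMP27, MMP8, MMP10, MMP1, MMP3, MMP12 and MMP13, and no other protein-coding gene starts between the first and the last of these 9. MMP10, MMP1 and MMP3 are direct neighbours in it, and MMP1, the middle gene, was the one called in SKOV3, whereas MMP10 and MMP3 on its sides were called in A2780s. MMP27 and MMP8 were measured in both cell lines, with mean ratios of -0.02 and 0.05 in SKOV3 and -0.10 and -0.10 in A2780s. MMP20, MMP12 and MMP13 were below the filter in both. On hg19 the probes of the direct neighbours are chr11:102641405-102641464 (MMP10), chr11:102660697-102660756 (MMP1) and chr11:102706694-102706753 (MMP3), all on the minus strand.

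**Figure D3:**
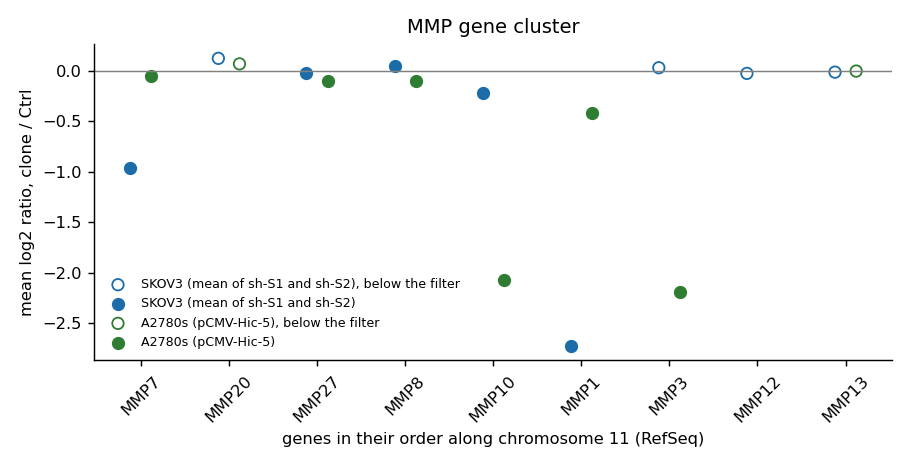
Mean log2 ratio of modified clone over Ctrl (vertical axis) for the 9 MMP genes of the chromosome 11 cluster, in gene order (horizontal axis, not to scale). Blue points are SKOV3, green points A2780s, and open points are genes below the filter on dim probes; MMP12 has no A2780s mean because a spot was flagged. MMP1 is low in SKOV3 and its neighbours MMP10 and MMP3 are low in A2780s.

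The rest of the family was not called in either cell line. Of 17 other genes (16 MMPs and TIMP4), 11 were tested in SKOV3 and 9 measured in A2780s, and 0 were called. Of all probes, 2.98% were called higher and 4.16% lower in SKOV3, and 3.26% higher and 1.32% lower in A2780s. A count of 0 among so few genes is near these shares. The median log2 ratio of these other MMPs and TIMP4 was 0.05 in SKOV3 and -0.08 in A2780s. MMP11, the stromelysin-3 gene, had the largest SKOV3 ratio among them, 0.56 (limma adjusted p = 0.0060), short of 2-fold.

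Among the genes that activate MMP zymogens, 3 of 10 tested were called lower in SKOV3 and 0 higher, where 4.16% of all probes were lower and 2.98% higher. PLAU, the urokinase that turns plasminogen into plasmin, fell by 2.77 on the log2 scale (limma adjusted p = 9.6e-06), and its receptor gene PLAUR fell by 1.09 (limma adjusted p = 0.00025). CTSB, the lysosomal protease cathepsin B, fell by 2.08 (limma adjusted p = 1.6e-05). PLAT, the tissue-type plasminogen activator, and PLG, plasminogen itself, had ratios of -0.91 and -0.10 and were not called. The list median was -0.31, against 0.00 for all probes tested. In A2780s, 12 activators were measured and 0 were called, with PLAU at -0.20, where 1.32% of all probes were lower and 3.26% higher.

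Of 9 membrane and secreted regulators tested in SKOV3, 4 were lower and 0 higher, where 4.16% of all probes were lower. The list median was -0.72, against 0.00 for all probes tested. TFPI2, a secreted Kunitz-type serine protease inhibitor of the matrix, fell by 3.98, and the probes of this gene disagreed in size, the other one giving -1.15. CAV1, the caveolae protein caveolin-1, fell by 3.74. CD44, the hyaluronan receptor that can dock MMP9 at the cell surface, fell by 3.73. THBS1, the matrix protein thrombospondin-1, fell by 3.04, with its other probe at -1.16. The limma adjusted p of these 4 lay between 2.5e-06 and 5.4e-06. None of the 8 measured in A2780s was called, where 1.32% of all probes were lower and 3.26% higher.

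The ADAM and ADAMTS genes encode relatives of the MMPs, among them sheddases and aggrecan- and versican-cutting enzymes. Of 19 tested in SKOV3, ADAMTS5 fell by 1.81 and ADAMTS9 fell by 1.29 (limma adjusted p = 0.00014 for each), and a further ADAMTS9 probe gave -0.05. The share of all probes called lower in SKOV3 was 4.16%. Of 23 measured in A2780s, ADAMTS1 was lower (-0.99, with -1.06 and -0.91 on the arrays) and ADAMTS7 was higher (0.64, with 1.08 and 0.21), while another ADAMTS7 probe gave 0.04. These are single genes of 23, beside 1.32% of all probes lower and 3.26% higher. ADAMTS1 also had a ratio of -0.94 in SKOV3, which was not called.

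The transcription factors that bind MMP promoters were all bright enough, 18 of 18 in both cell lines. In SKOV3, where 4.16% of all probes were lower, 4 factors were lower, with log2 ratios of -3.32 for JUN, -1.65 for ETS2, -1.33 for RUNX2 and -1.13 for CEBPB, and with limma adjusted p of 3.7e-06, 4.6e-05, 0.00033 and 0.011. The CEBPB clones were far apart (SD 0.78, n = 2 clones), and dimmer probes of ETS2, RUNX2 and CEBPB gave -0.10, 0.11 and 0.02. RUNX2 was well above background on all 4 arrays in the Ctrl but on 2 of 4 in the clones. Its Ctrl signal was enough to pass the filter, which favours a lower call, and the size of its fall is uncertain. The list median was -0.45, against 0.00 for all probes tested. JUN encodes an AP-1 subunit. It was lower in SKOV3, where MMP1 was lower, and higher in A2780s (2.20), where MMP3 and MMP10 were lower. No MMP1 or MMP3 promoter was at hand, and a link of JUN to these genes was not tested.

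In A2780s, 7 of the 18 factors were called higher and 0 lower, where 3.26% of all probes were higher. They were ATF3 (3.20), JUN (2.20), CEBPB (2.02), ETV5 (0.88), FOSB (0.83), FOS (0.65) and FOSL1 (0.62). The list median was 0.31, against -0.01 for all probes measured. The JUN ratio was 2.26 and 2.13 on the arrays, and the ATF3 ratio was 3.24 and 3.16. Of the AP-1 genes on the list, JUNB (0.30), JUND (0.44) and FOSL2 (0.01) were not called in A2780s.

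**Figure D4:**
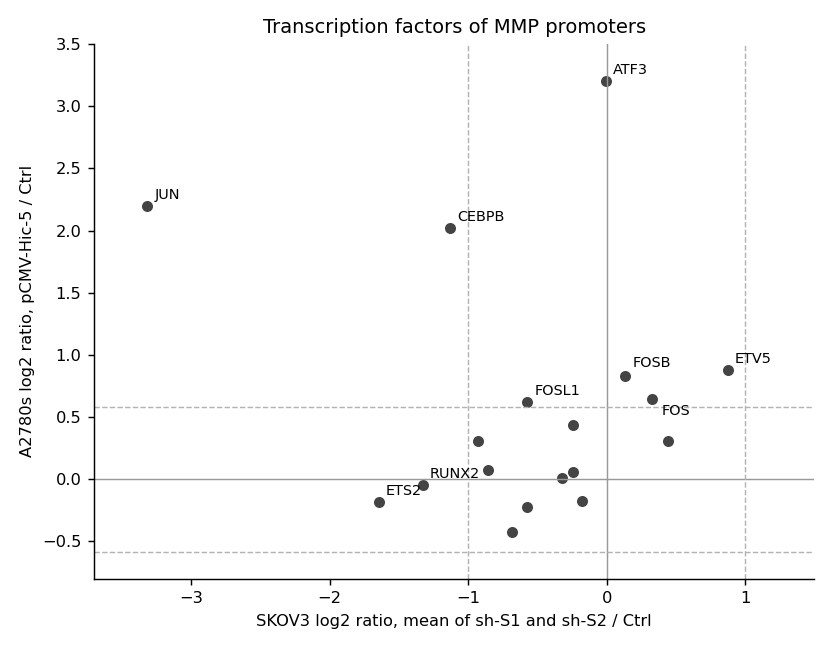
Mean log2 ratio of 18 transcription factors of MMP promoters in SKOV3 (horizontal axis, sh-S1 and sh-S2 over Ctrl) and A2780s (vertical axis, pCMV-Hic-5 over Ctrl). Each point is a gene, named where called in either line, and dashed lines mark 2-fold in SKOV3 and 1.5-fold in A2780s. JUN lies at -3.32 in SKOV3 and 2.20 in A2780s, and 7 factors lie above the A2780s line.

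Genes with a pattern close to that of each called member were taken by the smallest Euclidean distance over the 6 arrays, among 17864 genes measured in both cell lines (17865 for MMP3). Nearest to MMP1 were PDGFC, SMCO2 and TNFAIP2, at distances of 0.53 to 0.62. Nearest to MMP3 was MMP10 (0.88), followed by the chemokine receptor gene CXCR4 (1.11). MMP3, which was too dim in SKOV3 to be among the genes searched, lay 0.88 from MMP10. Of the genes searched, CXCR4 was nearest to MMP10 (1.24), with mean ratios of 0.04 in SKOV3 and -1.42 in A2780s. TIMP1 had SSBP4, MAGED1 and C15orf59 as its nearest genes (0.44 to 0.53), and TIMP2 had TUFT1, RAB10 and UBE2A (0.38 to 0.41). Distances of MMP3 and MMP10 were longer than those of the SKOV3 genes.

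**Figure D5:**
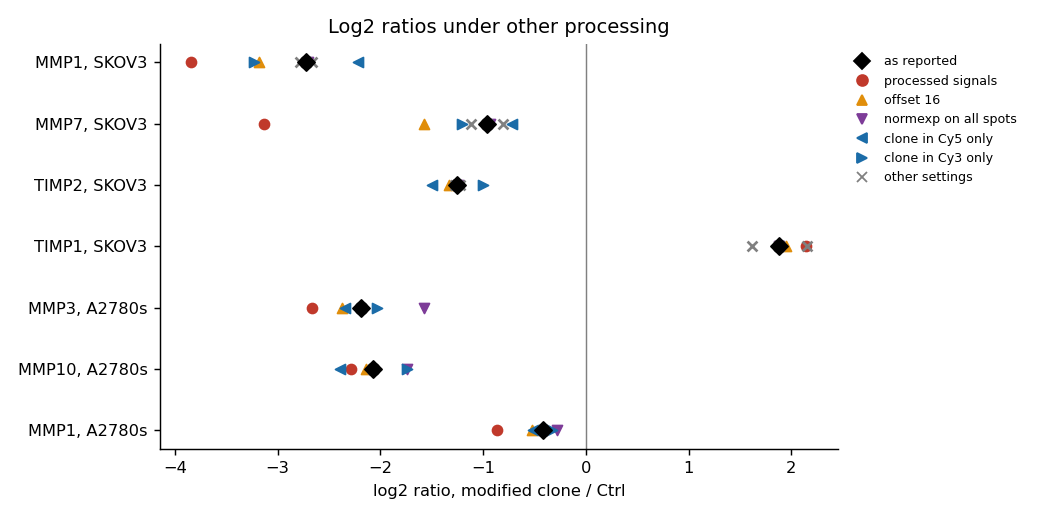
Log2 ratio of modified clone over Ctrl (horizontal axis) for 7 gene and cell line pairs (vertical axis) as reported (black diamonds) and under the other processing settings. MMP7 in SKOV3 moves from -0.96 to -3.14 with processed signals, while every setting keeps the sign of each pair shown.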

How the data were processed

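Gene expression was measured on 6 two-colour Agilent arrays. The authors deposited spot intensities from Agilent Feature Extraction, without normalization, together with processed intensities and log10 ratios of Cy5 over Cy3 (version 8.5.1.1 in the submitters' notes, 10.7.3.1 in the file headers). The deposited series values hold the same log10 ratios with 3 significant digits, with the sign of dye-swapped arrays left as scanned. The background correction, normalization and test behind the paper's calls are not given in the sources used here.

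Background was corrected with limma 3.58.1 in R 4.3.3 (normexp, offset 50). Spots with a local background over 1000 were left out, and flagged background was kept out of the fit. Control spots (1639 of 45015) and outlier spots (121 to 362 per array) were left out, loess was run within arrays, spots of a probe were averaged, and log2 ratios were turned so that the clone is the numerator. Levels per channel followed loess and Aquantile. The filter kept probes whose Ctrl signal was well above background on every array of a line, or whose clone signal was on both arrays of a clone, 24956 in SKOV3 and 30530 in A2780s. Dye-swapped arrays of a clone count as 1 replicate. SKOV3 means were tested against 0 with lmFit and eBayes and Benjamini-Hochberg adjustment. Both calling rules were first tested on simulated data. Precision is limited by the signal over background and by the number of arrays.

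The members, gene lists, promoter motifs and the handling of background spots were chosen with earlier results of these data known. Named genes were the 10 members, TGFB1I1, marker genes, up to 6 called genes per list and direction, and the 3 nearest genes of each called member; MMP11, MMP8, MMP27, PLAT, PLG, JUNB, JUND and FOSL2, and PLAU in A2780s, were named after their values were seen. A gene with several probes is given by its brightest probe. It was planned to print probes found in the protein sequence, but no protein table was used, and the printed probes were taken as coding from knowledge of the proteins. Other settings were processed signals, another offset, normexp on all spots, no filter, single dye orientations, leaving out a clone, and 4 arrays as units.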

Additional observations from a re-analysis of the deposited data

How the results depend on the processing

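The members called in SKOV3 stayed at 1 higher (TIMP1) under all 10 other settings. Those lower were 2 or 3 (MMP1 and TIMP2, with MMP7 added) and in A2780s 2 or 3 (MMP3 and MMP10, with MMP1 added). MMP1 lay between -3.84 and -2.22 in SKOV3, TIMP2 reached -1.50 at its lowest and stayed past 2-fold, TIMP1 lay between 1.61 and 2.15, and in A2780s MMP3 lay between -2.66 and -1.57 and MMP10 between -2.40 and -1.74. MMP7 in SKOV3 ran from -3.14 to -0.72 and passed 2-fold with processed signals, with offset 16, on the arrays with the clone in Cy3 (-1.21, limma adjusted p = 0.00083) and by size without sh-S1 (-1.12). MMP9, at 0.00, changed sign to 0.069 with processed signals, 0.013 with offset 16 and 0.15 with the clone in Cy5, all far from a call. Without sh-S1 or sh-S2 the values were 1.61 or 2.15 for TIMP1, -2.78 or -2.67 for MMP1, and -0.45 or 0.00 for MMP10, with no test. Each member has 1 probe, so averaging over probes changed nothing.

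With processed signals the SKOV3 list counts rose from 4 to 7 lower regulators and from 2 to 4 lower ADAM and ADAMTS genes. Lower transcription factors rose from 4 to 6 and lower activators from 3 to 4. Further, 2 transcription factors and 1 each of the other MMPs, activators and ADAM genes were higher where 0 had been. In A2780s, 1 regulator and 1 other MMP were lower where 0 had been, and 2 ADAM and ADAMTS genes in place of 1. The call of 7 higher transcription factors in A2780s stayed at 7. The cause was not tested. All probes called in SKOV3 rose with them, from 743 to 1971 higher and from 1038 to 2355 lower. In A2780s the counts over all probes were 994 higher and 403 lower as reported, 1366 and 700 with processed signals, 669 and 297 with normexp on all spots, 1795 and 1516 when the red-labelled clone array was taken alone, 1019 and 210 for its dye swap, and 495 and 123 with 1.5-fold on each array. No paired analysis was possible because each ratio is already taken within an array and each clone was a single RNA. Signal over background limits MMP2, MMP3 and MMP14 in SKOV3 and MMP2 and TIMP3 in A2780s.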
